A study of Mus musculus with 48 samples.

Results

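The carboxylesterase family of mouse liver was examined as 10 named genes, Ces1b, Ces1c, Ces1d, Ces1e, Ces1f, Ces1g, Ces2a, Ces2c, Ces2e and Ces3a, out of 29221 genes counted in 48 whole-liver RNA-seq libraries. The genes were chosen by name, and all 10 were found and passed the filter on low counts in each comparison. Every mouse carried a floxed Pparg gene, which encodes the nuclear receptor PPARγ, and after 16 weeks on diet received either AAV8-TBG-Cre, a virus that expresses Cre recombinase from a hepatocyte promoter (labelled knockout), or AAV8-TBG-null (control). Males were fed a high fat (HF) diet for 34 weeks, or the HF diet for 18 weeks and then, for 16 weeks, a HFCF diet (high fat with cholesterol and fructose added), with 6 controls and 6 labelled knockouts on each. Females were fed a low fat (LF) diet for 34 weeks, the HF diet for 34 weeks, or 18 weeks of HF followed by 16 weeks of HFCF, with 4 controls and 4 labelled knockouts on each. The labels give the mice as adult, without a further age. The virus acts in grown mice, and the RNA is that of the whole organ, so cells other than hepatocytes contribute to every value. A lower value from fewer hepatocytes cannot be told apart from one with less RNA per hepatocyte.

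Carboxylesterases are serine hydrolases that cleave esters, amides and thioesters. In hepatocytes most of them sit in the lumen of the endoplasmic reticulum (ER), held there by a short retention signal at the end of the protein. They hydrolyse drugs and environmental esters, and several also hydrolyse triacylglycerol, cholesteryl esters or other lipids. Ces1d, known as triacylglycerol hydrolase, releases fatty acids from stored fat for the assembly of very low density lipoprotein (VLDL). Ces1c lacks the retention signal and is the esterase that mice secrete into plasma, Ces1e (egasyn) binds beta-glucuronidase in the ER, and Ces1g hydrolyses neutral lipids. The Ces2 enzymes act on drug esters and acylglycerols.

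The last coding bases show which genes encode the retention signal. They are printed 5′ to 3′ with the stop codon last, from GENCODE M21 transcripts on GRCm38. Capitals mark the codons of His-X-Glu-Leu, an ER retention signal of this family, where X is any amino acid.
Ces1c: cacacagaacacaaatga
Ces1b: cacagagaacacaaatga
Ces1d: gaaCATGTTGAGCTCtga
Ces1e: gaaCACACTGAGCTGtga
Ces2c: aagCACAGGGAGCTTtag
Ces3a: gttccagaggagctctga
Of the 10 genes, 7 end in these codons (also Ces1f, Ces1g, Ces2a and Ces2e) and 3 do not, namely Ces1b, Ces1c and Ces3a. A gene without these codons is not thereby shown to encode a secreted enzyme, and retention was not tested.

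All 10 genes lie on chromosome 8 (GRCm38, coordinates as in the deposited tables). The 6 Ces1 genes form a run on the minus strand, from Ces1b (chr8:93056728-93080017) through Ces1c (chr8:93099015-93131283), Ces1d (chr8:93166068-93197838), Ces1e (chr8:93201218-93229619) and Ces1f (chr8:93256236-93279747) to Ces1g (chr8:93302369-93337308). On the plus strand lie Ces2a (chr8:104734003-104741634), Ces2c (chr8:104847068-104854483), Ces2e (chr8:104926260-104934672) and Ces3a (chr8:105048601-105058413). Ces1b and Ces1c are neighbours with closely alike promoters. The bases that lie upstream of every RefSeq start of each gene are shown for that reason (RefSeq, GRCm38.p6, minus strand, Ces1b chr8:93080018-93080190 and Ces1c chr8:93131284-93131533). Capitals mark runs of at least 20 bases that are the same in both.
Ces1b: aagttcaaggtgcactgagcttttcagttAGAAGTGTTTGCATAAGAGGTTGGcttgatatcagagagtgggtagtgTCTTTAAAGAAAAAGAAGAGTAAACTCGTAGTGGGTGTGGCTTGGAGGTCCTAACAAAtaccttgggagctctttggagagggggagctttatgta
Ces1c: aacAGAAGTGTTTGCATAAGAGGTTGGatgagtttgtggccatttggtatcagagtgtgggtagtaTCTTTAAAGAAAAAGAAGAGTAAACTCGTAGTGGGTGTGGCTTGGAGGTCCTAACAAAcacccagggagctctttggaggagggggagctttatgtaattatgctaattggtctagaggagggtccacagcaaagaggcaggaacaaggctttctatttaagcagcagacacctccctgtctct
Of 144 aligned bases, gaps not counted, 137 were identical (95.1%), and the longest shared run was 58 bases. Whether this likeness bears on the levels of the genes was not tested. Over whole RefSeq promoter windows of 300 bases, Ces1b and Ces1c were identical at up to 253 of 270 aligned bases (93.7%). On that measure the pair of genes with the next highest number was Ces2a with Ces2c, at 188 of 264 aligned (71.2%). Windows of 7 members were compared, those of Ces1d, Ces1f and Ces3a not being used here. The nuclear receptor core motif AGGTCA, sought on both strands, was in the Ces2a window and in none of the windows of Ces1b, Ces1c, Ces1e, Ces1g, Ces2c and Ces2e. It is held by 16.3% of 32851 mouse promoter windows of that length.

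Likeness between family members bears on the counts, because reads that fit several genes can be split or dropped. In coding sequence Ces3a was 95.28% identical to Ces3b, Ces2c 92.1% to Ces2b, and Ces1b 90.93% to Ces1c. Of all stretches of 100 bases in the transcript, 15.7% of those of Ces2c, 9.09% of those of Ces3a, 1.39% of those of Ces1c and 1.29% of those of Ces1b also occurred in another family member. For the other 6 genes that share was 0%. Of stretches of 50 bases, 40.2%, 30.9%, 13.4% and 10.8% were shared for the same genes in that order. For the other 6 it was 0.533% to 3.36%. The values of Ces2c and Ces3a, and less so those of Ces1b and Ces1c, are therefore uncertain, by an amount that was not measured. Ces1d overlaps the predicted gene Gm45909 and Ces3a overlaps Gm45724 on the opposite strand, and the libraries did not keep the strand.

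Libraries held 15338239 to 22072884 reads on genes. Levels are in counts-per-million units (CPM, the reads of a gene scaled to the library total after adjustment by TMM, a scaling factor per library). Pparg, counted over the whole gene so that its deleted exons are not separated, had a higher mean in labelled knockouts in every setting. In HFCF males it was at 48.4 to 63.7 CPM in labelled knockouts and 26.0 to 39.1 CPM in controls. In HFCF females it was at 39.1 to 59.3 and 21.7 to 25.2 CPM. The cause was not tested. Cidec, a lipid droplet gene that PPARγ activates, averaged 5.22 CPM in HF males labelled knockout and 134 CPM in their controls. In HFCF males those means were 27.0 and 162 CPM. In LF females they were 6.06 and 6.90 CPM, so the labels have no such check on that diet. Males carry animal numbers from 876 to 974 and females from 1084 to 1160, so sex and numbering series cannot be told apart. Results that turn on 3 libraries, namely HFCF control male 1, HF control female 1 and HFCF labelled-knockout female 1, are given with and without them. Leaving 1 of them out gave the most calls in several comparisons. By Dixon's test of outlying values, HFCF control male 1 was flagged for Ces1e, Ces1f, Ces1g, Ces2a and Ces2c. HF control female 1 was flagged for Ces1e only and HFCF labelled-knockout female 1 for Ces2e only. Other libraries were flagged too. The labels number the livers within groups but do not describe cages or cohorts. Hepatocyte markers (Alb, Apoa1, Ttr, Serpina1a, Cyp2e1, Cps1 and Ass1, 7 of 8 fixed markers found) summed to 43031 to 129417 CPM per library, and the exocrine pancreas markers to at most 0.405 CPM.

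Per kilobase of gene model, Ces1c was the most abundant carboxylesterase in all 10 groups. Its mean level ran from 502 CPM per kb in HFCF control males to 1766 CPM per kb in HF labelled-knockout females. This plasma esterase made up 31.4% to 61.2% of the per-kb total of the 19 family genes in the tables. The next gene differed by sex. In all 4 male groups it was Ces3a, at 328 to 542 CPM per kb, and in all 6 female groups it was Ces1d, at 217 to 487 CPM per kb. Ces1c and Ces3a overlapped in HFCF control males (502 and 453 CPM per kb), and Ces1d and Ces3a overlapped in LF and HFCF females of both genotypes. In the other male groups the ranges of Ces1c and Ces3a did not overlap. Ces2c was the least abundant of the 10 in every group, at 3.63 to 18.9 CPM per kb, and it overlapped the next gene, Ces1b, in the HFCF controls of both sexes and in HFCF labelled-knockout males.

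The 10 genes differed widely in how far they varied. The ratio of the highest to the lowest group mean was 5.23 for Ces2c, 4.06 for Ces1b, 3.52 for Ces1c, 3.48 for Ces3a and 3.44 for Ces1d. It was 2.28 for Ces2a, 1.96 for Ces1g, 1.85 for Ces1f, 1.61 for Ces1e and 1.45 for Ces2e. The family therefore held genes with strong and with weak differences between groups of mice in the same tissue. Of the 9 further family genes in the tables, Ces3b (a median of 165 CPM) and Ces2g (66.7 CPM) were well counted. The median was 1.21 CPM for Ces2h and at most 0.299 CPM for Ces1a, Ces1h, Ces2b, Ces2d-ps, Ces2f and Ces4a.

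**Figure D1:**
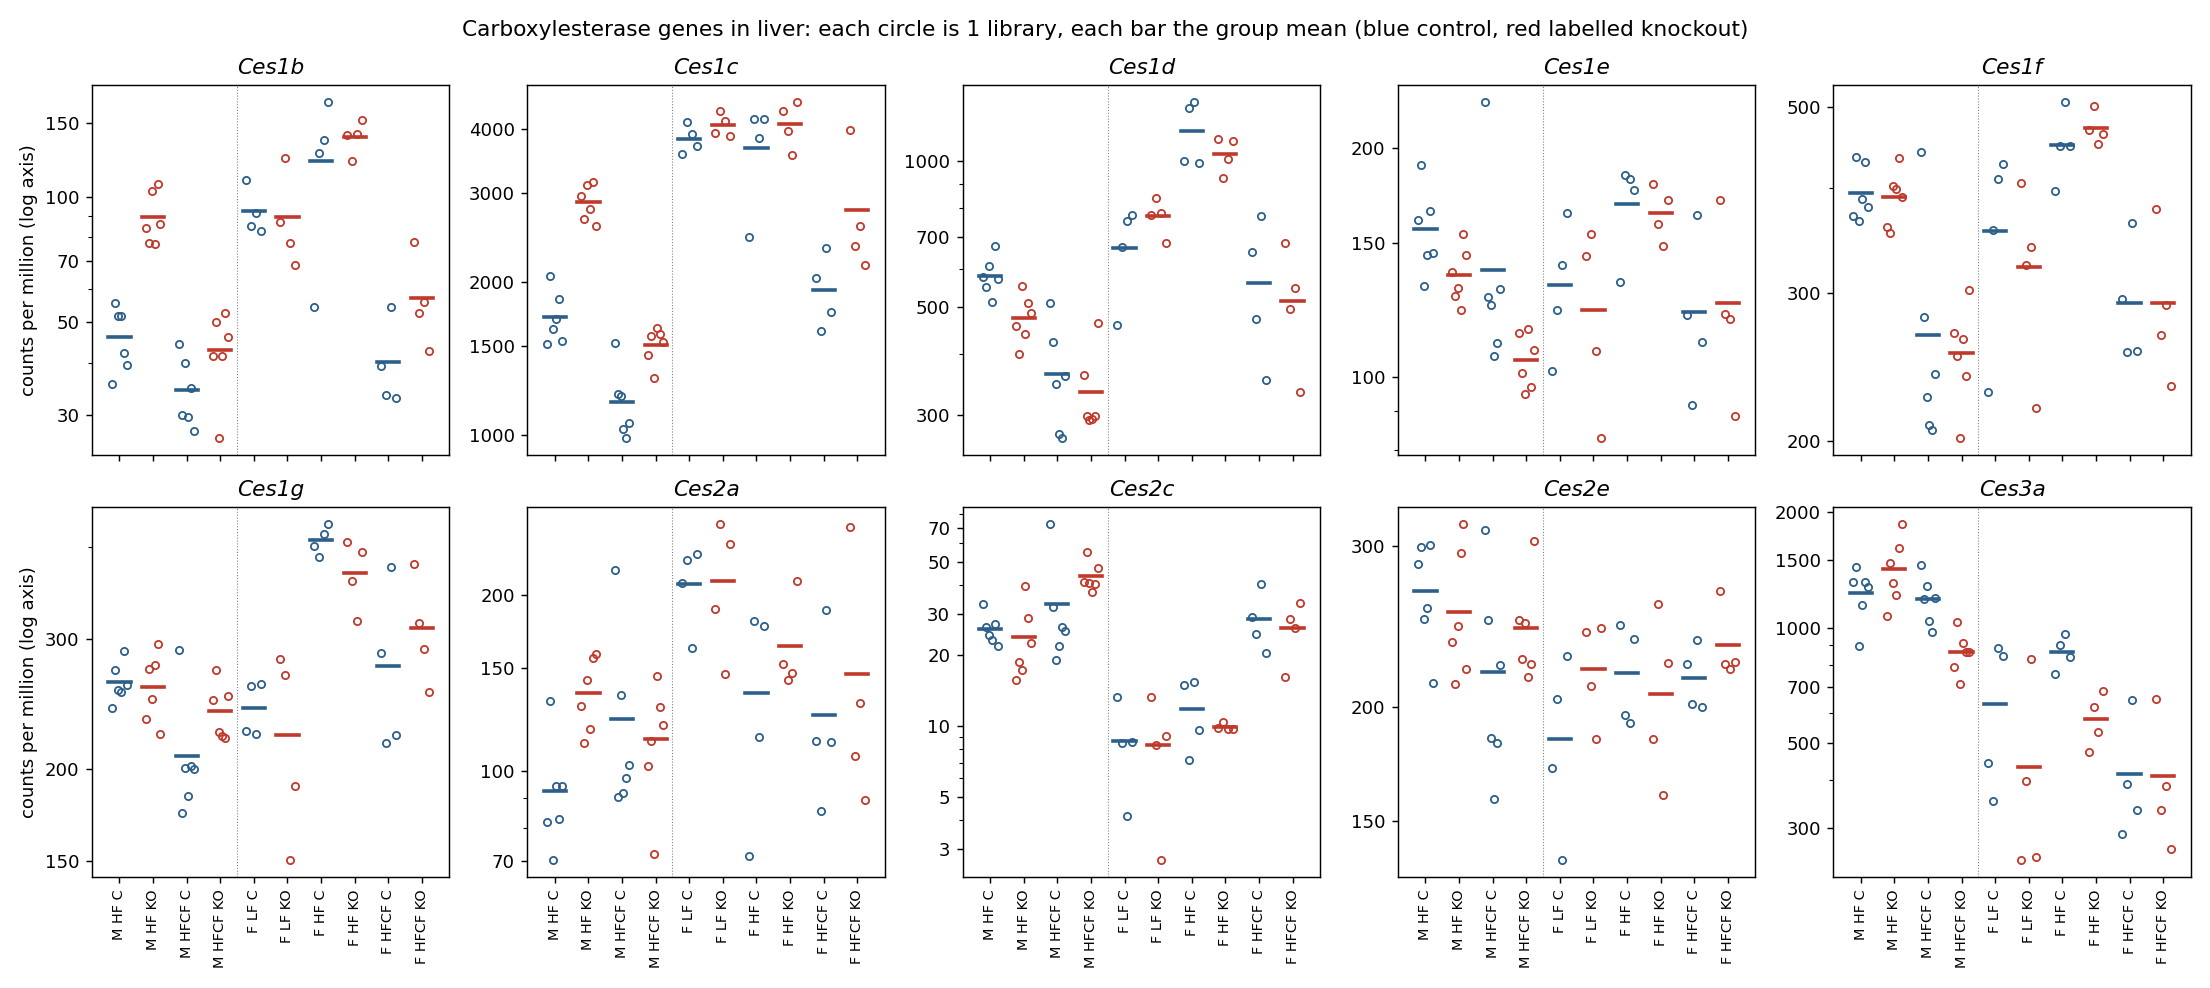
Level of each of the 10 carboxylesterase genes in CPM on a log axis, by group (M male, F female, C control, KO labelled knockout). Each circle is 1 library and each bar a group mean. Ces1c runs from 989 to 4533 CPM, and Ces2c is low in LF and HF females and higher in the other groups.

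The first comparison asked how the labelled loss of hepatocyte PPARγ related to these genes in HF-fed males. Ces1b, Ces1c and Ces2a were higher in labelled knockouts and Ces1d was lower, 4 of 10 genes called at an adjusted p under 0.05 in edgeR's quasi-likelihood test, beside 18.5% of all genes tested (8.57% higher and 9.88% lower). The median log2 fold change over the 10 genes was -0.03, and over all genes 0.00. All 4 calls held when each of the 12 libraries was left out in turn.

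Ces1c, the secreted esterase, ranged from 1510.4 through a median of 1657 to 2057 CPM in the 6 control males and from 2578 through 2876 to 3151 CPM in the 6 labelled knockouts. The groups did not overlap, and all labelled knockouts lay above all controls. The means were 1712 ± 210.3 and 2875 ± 237 CPM (SD, n = 6 each), a 1.68-fold difference with a log2 fold change of 0.74 (SE 0.08, edgeR adjusted p = 2.91e-05). Its neighbour Ces1b ranged from 35.6 through 47.0 to 55.6 CPM in controls and from 76.9 through 85.1 to 107 CPM in labelled knockouts. These ranges did not overlap either, and the mean was 1.94-fold higher, with a log2 fold change of 0.95 (SE 0.11, edgeR adjusted p = 4.62e-05). Of all genes with a mean of 10 reads or more, 7.83% did not overlap in this comparison.

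Ces2a, an acylglycerol and drug hydrolase, ranged from 70.4 through 88.5 to 132 CPM in controls and from 112 through 136 to 159 CPM in labelled knockouts. Its ranges overlapped through 1 high control, and the log2 fold change was 0.55 (SE 0.13, edgeR adjusted p = 0.00695). Ces1d, the triacylglycerol hydrolase, went the other way, from 513 through 574 to 669.6 CPM in controls to 399.6 through 473 to 555 CPM in labelled knockouts. The groups overlapped, and it fell by 0.30 on the log2 scale (SE 0.08, edgeR adjusted p = 0.0171). The remaining genes were not called: Ces1e had a log2 difference of -0.21 (edgeR adjusted p = 0.0979), Ces3a 0.21, and Ces1f, Ces1g, Ces2c and Ces2e lay between -0.13 and -0.02. The calls of Ces1d and Ces2a were lost when all 10 groups were fitted together (adjusted p = 0.256 and 0.126).

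Hepatocyte markers moved with this comparison. Their sum was 66308 to 93344 CPM in controls and 96509 to 113133 CPM in labelled knockouts, and 6 of the 7 were called higher. Of 8 stellate cell and fibroblast markers 5 were called lower, the sum falling from 428 to 628 CPM in controls to 282 to 388 CPM. Of 4 haemoglobin genes that mark blood, 2 were called higher. The part of these differences in the carboxylesterase results was not tested. Per 1000 CPM of summed hepatocyte markers, a measure added after the values were seen, Ces1c was at 26.7 ± 1.80 in labelled knockouts and 21.1 ± 2.17 in controls, and Ces1b at 0.826 ± 0.0884 and 0.575 ± 0.131 (SD, n = 6 each). On that scale the ranges of both genes overlapped. Ces1d, Ces1e, Ces1f, Ces1g and Ces2e lay lower in all 6 labelled knockouts than in any control, by 0.43 to 0.71 on the log2 scale. The divisor itself was 0.41 higher in labelled knockouts, and on this scale 24.7% of all genes lay lower without overlap and 0.184% higher.

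Other lipid hydrolases also differed between HF-fed males. The lists counted here were chosen with earlier results of these data known. Of all genes, 8.57% were called higher and 9.88% lower. Of 14 further neutral lipid hydrolases and cofactors tested, 2 were higher and 7 lower in labelled knockouts. The 4 largest were the phospholipase Ddhd2 (a log2 fold change of -0.66), hepatic lipase Lipc (0.56), the cholesterol ester hydrolase Nceh1 (-0.47) and the monoacylglycerol hydrolase Abhd6 (-0.44). Of 10 other ester and epoxide hydrolases, 3 were higher and 0 lower, namely the plasma paraoxonase Pon1 (0.63), Afmid (0.54) and Bphl (0.29). Of 8 VLDL assembly genes 3 were higher and 2 lower, among them the droplet coat protein Plin2 (-0.86) and Tm6sf2 (0.58). Of 3 tested ER retention receptors and partners, Gusb, the beta-glucuronidase held in the ER by Ces1e, fell by 0.34 on the log2 scale and Kdelr2 was higher by 0.23. Among other carboxylesterases Ces2h, at a low level, fell by 1.16 on the log2 scale.

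In HFCF-fed males Ces3a was the 1 gene called, lower in labelled knockouts, 1 of 10 genes beside 2.21% of all genes tested (0.933% higher and 1.27% lower). Ces3a ranged from 974 through 1190.4 to 1459.8 CPM in controls and from 711 through 864 to 1036 CPM in labelled knockouts. The groups overlapped, and it fell by 0.46 on the log2 scale (SE 0.11, edgeR adjusted p = 0.0398). That call held in 4 of 12 fits that left out 1 library. It was lost without control 2, 3 or 6 or labelled knockout 1, 3, 4, 5 or 6, where the adjusted p reached 0.0873, and in the joint fit of all groups (0.495). Ces1b and Ces1c, called in HF males, had log2 differences of 0.33 (edgeR adjusted p = 0.341) and 0.38 (0.0762) here. Without HFCF control male 1, which was the highest of the 6 controls for all 10 genes, 4 of the 10 were called: Ces1c (log2 fold change 0.47), Ces1g (0.33) and Ces2c (0.81) higher, and Ces3a lower. Over all genes, leaving out that control gave 1052 calls in place of 324. Ces1c was also called without labelled-knockout male 3, and with all libraries by the DESeq2 Wald test (adjusted p = 0.0104).

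The difference between the diets was itself tested as an interaction in the 4 male groups. Ces3a alone was called, with a knockout effect more negative on HFCF than on HF by 0.68 on the log2 scale (interaction -0.68, SE 0.18, edgeR adjusted p = 0.0459), beside 1.56% of all genes (0.570% lower and 0.987% higher). It was called in 5 of 24 fits that left out 1 library and was lost with each other one left out, and in the joint fit of all groups (adjusted p = 0.444). Without HFCF control male 1, Ces2c was called in place of Ces3a (0.92, adjusted p = 0.0497). Ces1b (-0.64, adjusted p = 0.0927), Ces1c (-0.38, 0.124) and Ces2a (-0.67, 0.187) had negative interactions that did not pass the threshold.

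In females no carboxylesterase was called in labelled knockouts on any of the 3 diets. With edgeR 0 of 10 were called on LF, HF and HFCF, beside 0%, 0% and 0.0534% of all genes (on HFCF, 0.00668% higher and 0.0467% lower). At an unadjusted p under 0.05 there were 0, 1 and 2 of the 10, and the DESeq2 Wald test called 0, 1 and 0. Over all genes the unadjusted counts were 355 of 14285, 1135 of 14128 and 1340 of 14980, and the Wald test called 8, 70 and 81. The gene that DESeq2 called was Ces3a in HF females. It measured 758, 899, 960.4 and 836 CPM in the 4 controls and 472, 620.0, 532 and 685 CPM in the 4 labelled knockouts. The 2 groups did not overlap, as in 5.39% of genes, with a log2 difference of -0.56 (SE 0.13, edgeR adjusted p = 0.462). Ces3a also had a negative difference in LF females (-0.54, SE 0.41) and a difference of 0.00 in HFCF females (SE 0.31).

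Ces1c in HFCF females measured 2036, 1602, 2334 and 1750.0 CPM in controls and 3994, 2360.2, 2587 and 2159 CPM in labelled knockouts. Labelled knockout 1 lay far above the others, the groups overlapped, and the log2 difference was 0.55 (SE 0.22, edgeR adjusted p = 0.548). Without that library it was 0.31 (adjusted p = 0.610). In HF females it was 0.18 and in LF females 0.10. Whether the knockout difference depended on sex was tested on each diet, and 0 of 10 genes were called with edgeR on HF or on HFCF, where 0% of all genes were called on both. At an unadjusted p under 0.05 the counts were 3 and 0, and the DESeq2 Wald test called 0 on both. Over all genes the unadjusted counts were 1590 of 15024 and 1515 of 15673, and the Wald test called 46 and 17. Without HF control female 1, whose Ces1b (54.4 CPM) and Ces1c (2451 CPM) were the lowest of its group, Ces1b, Ces1c and Ces3a passed on the HF diet, each with a more positive difference in males (adjusted p = 0.0128, 0.0128 and 0.0465). Over all genes that fit called 287, in place of 0. The knockout-by-diet interaction in females called 0 of 10 with edgeR, 0 at an unadjusted p under 0.05 and 0 with DESeq2. Over all genes edgeR and DESeq2 also called 0, and 667 of 15445 had an unadjusted p under 0.05.

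**Figure D2:**
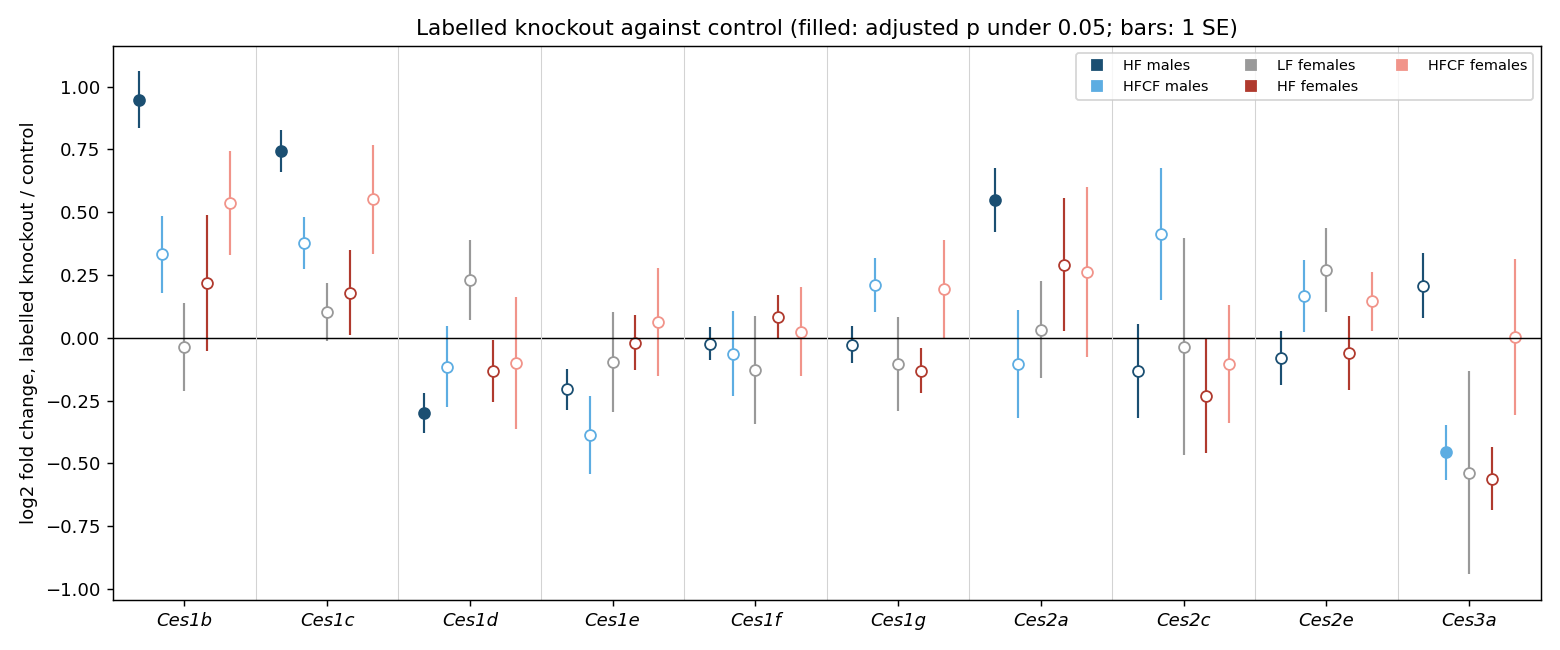
Log2 fold change of each gene in labelled knockouts against controls, with bars of 1 standard error, in HF males, HFCF males and females on 3 diets. Filled circles passed an adjusted p of 0.05: Ces1b (0.95), Ces1c (0.74), Ces1d (-0.30) and Ces2a (0.55) in HF males and Ces3a (-0.46) in HFCF males.

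The second comparison set HFCF-fed against HF-fed mice, separately by sex and genotype. Ces1b, Ces1d and Ces1f were lower on HFCF in all 4 settings, and Ces1c in 3 of them. Ces2c, the least abundant of the 10, went the other way and was higher in 3. In control males 5 genes were lower and 0 higher (22.3% of all genes called, 9.31% lower and 13.0% higher), and in labelled-knockout males 6 lower and 1 higher (41.7%, 20% lower and 21.6% higher). In control females 6 were lower and 1 higher (30.8%, 13.8% lower and 16.9% higher), and in labelled-knockout females 3 lower and 1 higher (14.5%, 6.01% lower and 8.44% higher). The median log2 fold change of the 10 genes was -0.31, -0.43, -0.57 and -0.45 in that order, and that of all genes lay between -0.02 and 0.01. Ranges did not overlap for 1, 5, 6 and 4 of the 10 genes, beside 4.49%, 18.7%, 29.6% and 19.4% of genes. The control and labelled-knockout comparisons, and those of males and females, share no livers.

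Ces1b had the most negative log2 fold change of the 10 genes in labelled-knockout males and in both female settings, and Ces1d in control males. In females Ces1b measured 54.4, 127, 137 and 169 CPM in the HF controls and 39.3, 33.5, 54.5 and 33 CPM in the HFCF controls. The groups met at HF control 1 and HFCF control 3, and the gene fell by 1.58 on the log2 scale (SE 0.31, edgeR adjusted p = 0.00811). In labelled-knockout females it went from 141, 122, 141 and 153 CPM to 78.0, 52.5, 55.9 and 42.6 CPM, without overlap (log2 fold change -1.28, SE 0.17, edgeR adjusted p = 0.00245). The male changes were -0.42 in controls (adjusted p = 0.0308) and -1.05 in labelled knockouts (3.31e-05). The control-male call held in 5 of 12 fits that left out 1 library: it was lost without HF control 2, 3 or 4 or HFCF control 2, 4, 5 or 6, with an adjusted p of at most 0.0751, and in the joint fit (0.0926).

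Ces1c fell from 1712 to 1165 CPM in control males, from 2875 to 1507 CPM in labelled-knockout males and from 3671 to 1930.5 CPM in control females. The log2 fold changes were -0.55 (SE 0.11, edgeR adjusted p = 0.00351), -0.93 (SE 0.08, 7.98e-07) and -0.90 (SE 0.19, 0.0103). In labelled-knockout females it had a log2 difference of -0.56 that was not called (edgeR adjusted p = 0.0825). Without HFCF labelled-knockout female 1, at 3994 CPM, the call was made, with a log2 fold change of -0.77 and an adjusted p of 0.00147. With all libraries it was called by the DESeq2 Wald test (adjusted p = 0.0251) and in the joint fit of all groups (0.00548).

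Ces1d, the VLDL-linked hydrolase, measured 1001, 1291, 1328 and 993 CPM in HF control females and 649.5, 472, 771 and 354 CPM on HFCF. All 4 HF values lay above all HFCF values, and the log2 fold change was -1.02 (SE 0.23, edgeR adjusted p = 0.0126). In labelled-knockout females it was -1.01, in control males -0.67 and in labelled-knockout males -0.50, each called. Ces1f fell by 0.56, 0.61, 0.60 and 0.69 on the log2 scale in control males, labelled-knockout males, control females and labelled-knockout females. Its changes were the most even of the 10 over the 4 settings. In control males its call was lost without HFCF control 4 (adjusted p = 0.0507).

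Ces3a did not fall alike in all settings. It went from 758, 899, 960.4 and 836 CPM in HF control females to 289, 391, 649 and 334 CPM on HFCF, without overlap (log2 fold change -1.03, SE 0.23, edgeR adjusted p = 0.0128). In labelled-knockout males it fell by 0.72 on the log2 scale (adjusted p = 0.000308), and in control males the difference was -0.04 (0.843). The test of diet by sex in controls gave Ces3a an interaction of 1.0 (SE 0.25, edgeR adjusted p = 0.147) and Ces1b 1.17 (SE 0.32, 0.172), both less negative in males and neither called. Of the 10 genes 0 were called, beside 0.00646% of all genes, with 3 at an unadjusted p under 0.05 and 2 by the DESeq2 Wald test (Ces1b and Ces3a). Both were also called with edgeR without HF control female 1, and Ces3a without HFCF control female 3. Of all 15491 genes tested, 2561 had an unadjusted p under 0.05 and the Wald test called 134. With edgeR 1699 of all genes were called without HF control female 1, in place of 1. Ces1g fell in the controls of both sexes (-0.33 in males, -0.55 in females). These calls were lost without most single libraries: HF control male 2, 5 or 6 or HFCF control male 2, 3, 4, 5 or 6 (adjusted p up to 0.0778), and HF control female 2, 3 or 4 or HFCF control female 1, 2 or 5 (up to 0.0911). The joint fit of all groups also ended the call of Ces1g in control males (adjusted p = 0.0514) and that of Ces1e in labelled-knockout males (0.0501). Ces1e fell by 0.37 on the log2 scale in labelled-knockout males, and in control females its difference of -0.45 was not called (edgeR adjusted p = 0.0760), though it was without HF control 1 or HFCF control 3 and by the DESeq2 Wald test (0.0451). Ces2a and Ces2e were not called in any of the 4 settings, with log2 differences from -0.29 to 0.41.

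Ces2c measured 15, 7.16, 15.5 and 9.61 CPM in HF control females and 29.0, 24.7, 40.3 and 20.5 CPM in HFCF controls. The HFCF values all lay above the HF values, with a log2 fold change of 1.30 (SE 0.28, edgeR adjusted p = 0.0107). In labelled-knockout females it went from 9.83, 10.5, 9.76 and 9.72 CPM to 16.3, 28.7, 26.1 and 33.4 CPM, again without overlap (1.40, SE 0.20, adjusted p = 0.00325). In labelled-knockout males the change was 0.87 (adjusted p = 0.00169) and in control males 0.34 (0.379), where HFCF control 1 reached 72.7 CPM beside 19.1 to 32.2 CPM in the other 5. Without that library the control-male difference was -0.05.

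Leaving out single libraries also moved the counts. Without HFCF control male 1 the calls in control males were 7 in place of 5 (Ces1e and Ces2e added), and without HFCF control 4 they were 2. Over all genes the calls in these fits were 5429 and 2217, in place of 3225. Without HFCF labelled-knockout female 1 the calls in labelled-knockout females were 9 in place of 4, and over all genes 4402 in place of 2118. In that library the hepatocyte markers summed to 117964 CPM, beside 63631 to 82920 CPM in the other 3 of its group.

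**Figure D3:**
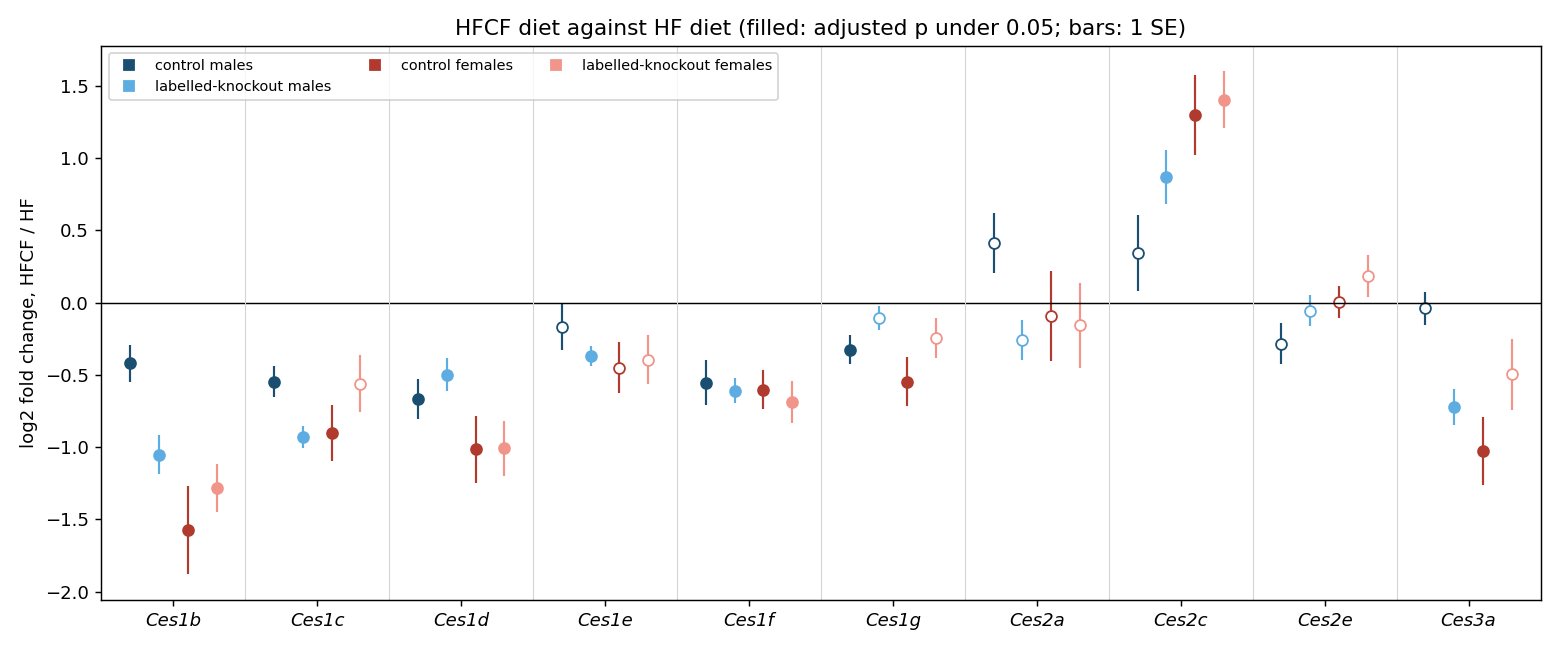
Log2 fold change of each gene on the HFCF diet against the HF diet, with bars of 1 standard error, in 2 sexes and 2 genotypes. Filled circles passed an adjusted p of 0.05. Ces1b, Ces1d and Ces1f lie below 0 in all 4 settings, and Ces2c rises to 1.30 in control females and 1.40 in labelled-knockout females.

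Markers of liver cell types moved with the HFCF diet. Hepatocyte markers summed to 66308 to 93344 CPM in HF control males and 43031 to 70059 CPM in HFCF control males, and to 95059 to 119732 and 57629 to 73110 CPM in control females. Of the 7 markers 3 were called lower in control males, 7 in labelled-knockout males, 5 in control females and 0 in labelled-knockout females (5 at an unadjusted p under 0.05). Of 10 macrophage markers 7, 8, 7 and 4 were called higher in those settings, and of 8 stellate and fibroblast markers 7, 7, 4 and 8. All 4 biliary markers were higher in each. The part of these differences in the carboxylesterase results was not tested.

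The members were also set against the summed hepatocyte markers, which were themselves lower on HFCF by 0.55, 0.75, 0.73 and 0.54 on the log2 scale in control males, labelled-knockout males, control females and labelled-knockout females. On that scale 19.4%, 70%, 69.3% and 26.5% of all genes were higher on HFCF without overlap, and 3, 4, 2 and 2 of the 10 members. Lower without overlap were 0.117%, 0.118%, 0.259% and 0.776% of all genes, and 0, 0, 0 and 3 members. Per 1000 CPM of those markers Ces1c was at 20.9 ± 1.90 in HFCF and 21.1 ± 2.17 in HF control males (SD, n = 6 each) and at 29.3 ± 3.13 and 33.3 ± 5.09 in control females (n = 4 each), with ranges that overlapped. Ces1b and Ces1d overlapped on this scale in 3 of the 4 settings, and in labelled-knockout females all HFCF values were below all HF values (log2 differences of -0.77 and -0.51). Ces2c was higher without overlap in control females (2.03 on the log2 scale), labelled-knockout females (1.88) and labelled-knockout males (1.68). Ces2e, with differences in CPM of 0.00, 0.18 and -0.06 that were not called, was also higher in those 3 settings. In control males Ces1e (0.32), Ces2a (0.90) and Ces3a (0.50) were higher without overlap. Over the 48 libraries the Pearson correlation of log2 CPM with the log2 marker sum was 0.919 for Ces1c, 0.881 for Ces1b, 0.736 for Ces1d, -0.651 for Ces2c, -0.086 for Ces3a and 0.058 for Ces2e. This correlation is a description, since the libraries fall into 10 groups. Each gene is also scaled to the same adjusted library total as the markers, of which Alb made up 70.6%.

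**Figure D4:**
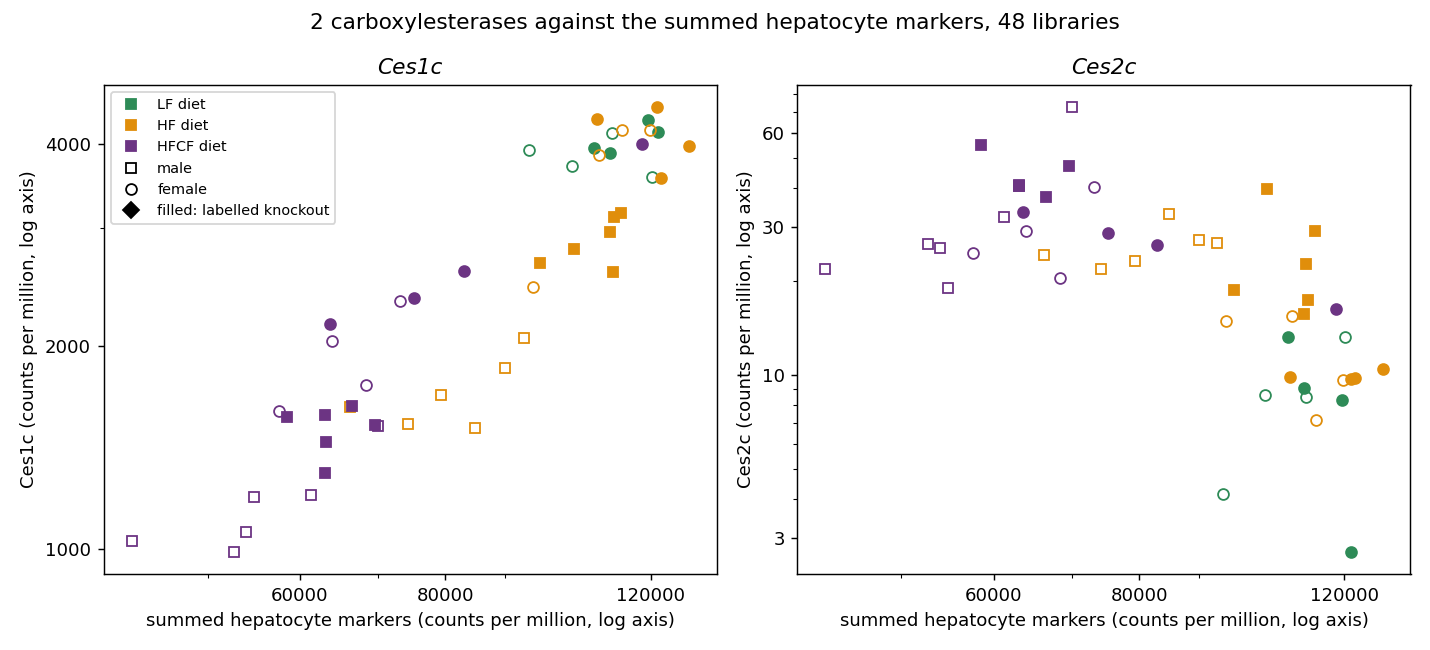
Ces1c (left) and Ces2c (right) in CPM against the summed hepatocyte markers, on log axes, 1 point per library (squares male, circles female, filled labelled knockout, colour diet). Ces1c rises with the marker sum (r = 0.919 over 48 libraries), with females above males, and Ces2c falls (r = -0.651).

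Other genes of the pathway also differed between HFCF and HF. Of all genes, 9.31%, 20%, 13.8% and 6.01% were called lower in control males, labelled-knockout males, control females and labelled-knockout females. Called higher were 13.0%, 21.6%, 16.9% and 8.44%. Of 10 other ester and epoxide hydrolases, 5, 7, 7 and 1 were lower in control males, labelled-knockout males, control females and labelled-knockout females, and 1 (Ephx1, in labelled-knockout females) was higher. Pon1, the plasma paraoxonase, fell by 0.41, 0.90 and 1.09 on the log2 scale in the first 3. Of 15 transcription factors of drug and lipid metabolism, 7, 7, 8 and 3 were lower. Among them Nr1i3, which encodes the xenobiotic receptor CAR, fell by 0.97, 0.82, 1.35 and 1.47. Of 14 neutral lipid hydrolases and cofactors 3, 3, 5 and 0 were lower and 0, 3, 2 and 1 higher. Those in labelled-knockout males lay near the shares of all genes. The lysosomal lipase Lipa was higher in the last 3 settings. Of 8 VLDL assembly genes 4, 4, 3 and 1 were lower and 0, 1, 0 and 0 higher, Dgat2 (triacylglycerol synthesis) being lower in all 4. Gusb, which Ces1e binds, was higher in 3 of the 4 settings (0.39 to 0.72).

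Against the LF diet, given to females, HF-fed mice had more Ces1g. It was the 1 gene called in controls, beside 0.696% of all genes (0.443% higher and 0.253% lower), and 0 of 10 were called with edgeR in labelled knockouts, beside 0.155% (0.0704% higher and 0.0844% lower). Ces1g, a neutral lipid hydrolase, measured 225, 259, 223 and 261 CPM in LF controls and 402, 387, 417 and 430.0 CPM in HF controls. The groups were well apart, with a log2 fold change of 0.75 (SE 0.09, edgeR adjusted p = 0.0114). The call was lost without LF control 4 or HF control 3 (adjusted p up to 0.0592). In labelled knockouts Ces1g measured 282, 268, 150.4 and 189 CPM on LF and 406, 359, 317 and 393 CPM on HF, also without overlap, with a log2 difference of 0.73 (SE 0.18, edgeR adjusted p = 0.129). There 5 of 10 genes had an unadjusted p under 0.05, and the DESeq2 Wald test called 4 (Ces1b, Ces1d, Ces1f and Ces1g). Of all 14214 genes tested, 1902 had such a p, and the Wald test called 510. Ces1d measured 459, 666, 752 and 776 CPM in LF controls, below all HF controls (993 to 1328 CPM), with a log2 difference of 0.80 (SE 0.17, edgeR adjusted p = 0.0723). It was called by the DESeq2 Wald test (adjusted p = 0.000728), without the filter (0.0449) and in the joint fit (0.0122). Ranges did not overlap for 2 of 10 genes in controls (Ces1d and Ces1g), beside 9.99% of genes, and for 3 in labelled knockouts (Ces1d, Ces1f and Ces1g), beside 8.18%.

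Against LF, the HFCF diet gave 3 genes lower and 1 higher in control females (35.2% of all genes, 16.8% lower and 18.4% higher) and 0 lower and 1 higher in labelled knockouts (12%, 3.74% lower and 8.26% higher). These use the same HFCF females as the comparison with HF. Ces2c measured 13.3, 8.52, 4.15 and 8.60 CPM in LF controls, below all the HFCF controls above, a log2 fold change of 1.70 (SE 0.32, edgeR adjusted p = 0.00323). In labelled knockouts it was 1.68 (SE 0.37, adjusted p = 0.0146). Ces1b (-1.22), Ces1c (-1.01) and Ces2a (-0.76) were lower in controls. The Ces2a call was lost without LF control 2 or 4 or HFCF control 1, 2 or 5 (adjusted p up to 0.0742). Without HFCF labelled-knockout female 1 the labelled knockouts gave 5 calls in place of 1, and over all genes 3587 in place of 1754. Ces3b, the close paralog of Ces3a, was lower on HFCF by 2.14 in controls and 1.94 in labelled knockouts. Hepatocyte marker sums were 94409 to 120201 CPM in LF controls.

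The third comparison set control males against control females on the same diet. On HF, Ces1b, Ces1c, Ces1d and Ces1g were lower in males and Ces2c and Ces3a higher, 6 of 10 beside 18.1% of all genes (9.58% lower and 8.52% higher). Ces1c, at 1510.4 to 2057 CPM in the 6 males, was below all 4 females (2451, 4189.8, 3851 and 4192 CPM), with a log2 fold change of -1.10 (SE 0.14, edgeR adjusted p = 0.000673). Ces1d was at 513 to 669.6 CPM in males and at 993 CPM or more in females (-0.98, SE 0.10, adjusted p = 0.000137). Ces1g was lower by 0.64 and Ces1b by 1.40 on the log2 scale. Ces2c was at 21.9 to 33 CPM in males, above all females (1.14, SE 0.20, adjusted p = 0.00294), and Ces3a was higher by 0.51 with ranges that overlapped. The Ces3a call was lost in the joint fit of all groups (adjusted p = 0.166) and with the replicate number as a block (0.0833). Of all genes 12.5% did not overlap. Without HF control female 1, 9 of 10 genes were called, with Ces2e added higher and Ces1f and Ces2a added lower in males. Over all genes that fit called 5053 in place of 2624. Ces2e was also called without HF control male 6.

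On HFCF 2 of 10 genes were called between control males and females, beside 2.63% of all genes (1.34% lower and 1.30% higher). Ces3a was higher in males, at 974 to 1459.8 CPM beside 289, 391, 649 and 334 CPM in females, a 2.86-fold difference without overlap (log2 fold change 1.51, SE 0.21, edgeR adjusted p = 0.00221). Ces1c was lower, at 989 to 1519.7 CPM beside 1602 to 2334 CPM, also without overlap (-0.73, SE 0.14, adjusted p = 0.0142). Its call was lost without HFCF control female 1 (adjusted p = 0.0604). Of all genes 5.60% did not overlap. Known sex-biased liver genes were apart on both diets: all 6 tested male-biased genes were higher in males and all 7 female-biased genes lower. Hepatocyte markers were lower in HF males for 2 of 7, and for 0 of 7 on HFCF (1 at an unadjusted p under 0.05). Per 1000 CPM of those markers Ces3a stood at 15.1 ± 1.26 in HF males (SD, n = 6) and 7.94 ± 0.772 in HF females (n = 4), without overlap. Of all genes 28.8% were higher in HF males without overlap on that scale and 0.729% lower, and on HFCF 9.66% and 0.639%. On that scale Ces1c was 0.65 lower in males on the log2 scale on HF and 0.49 lower on HFCF, again without overlap. Ces1b (-0.88), Ces1d (-0.55) and Ces1g (-0.21), called lower in HF males in CPM, overlapped per marker, and Ces1e, Ces2c and Ces2e were higher in HF males without overlap.

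Across the 48 libraries Ces1b and Ces1c had a Pearson correlation of 0.908 in log2 CPM, and of 0.772 after each group's mean was removed. Ces1e and Ces1f stood at 0.838 and 0.863, Ces1c and Ces2a at 0.684 and 0.821, and Ces1d and Ces1f at 0.779 and 0.777. Ces1b and Ces1c were thus not the most alike pair within groups. Ces1c with Ces2c stood at -0.738 and -0.041, so that this relation lay between groups and not within them. These correlations share adjusted library totals and are given as a description. Among 8504 genes, a number that includes the family, those outside the family most like Ces1c were Rdh16f2 (r = 0.986), Pon1 (0.979) and Afm (0.969). Those most like Ces1b were Ndrg2 (0.944), Pipox (0.943) and Smarcd2 (0.942). For Ces1d they were Per3 (0.903), Acot4 (0.898) and Abcd2 (0.891), and for Ces3a Scp2 (0.870), Mug1 (0.867) and St3gal3 (0.860). For Ces2c they were Aldh1a7 (0.909), Ugdh (0.859) and Myh10 (0.851), and for Ces2a Cyp4f15 (0.864), Hsd17b2 (0.861) and Rgn (0.847). For Ces1e they were Bckdha (0.849), Uqcrc2 (0.843) and Hadh (0.827), for Ces1f Slco2b1 (0.889), Dhdh (0.888) and Sod2 (0.886), for Ces1g Mpc1 (0.741), Pdk2 (0.740) and Mccc1 (0.737), and for Ces2e Pgk1 (0.785), Gapdh (0.727) and Cyb5b (0.719). The highest r was thus above 0.9 for Ces1b, Ces1c, Ces1d and Ces2c and lowest for Ces1g.

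In the authors' deposited tables, which cover 11 of the 15 pairwise comparisons, 37 of 110 values for these genes had an adjusted p under 0.05, and 29 were called here, all 29 of them by both. All 110 had the same sign.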

How the data were processed

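The deposited tables hold whole-number read counts per gene with no normalization, per the file headers. The authors' normalised signal, FPKM, log2 fold changes and p-values in the same deposited tables served at most for comparison. The submitters' processing notes name STAR 2.6.1, HTSeq 0.6.1, DESeq2 (version 2) and the builds GRCm38 and mm10. The counts of 11 tables were joined by gene; 0 of 1341082 repeated values differed. CPM used TMM factors from edgeR 4.0.16 (R 4.3.3). Each comparison was fitted to its own groups with filterByExpr and edgeR's quasi-likelihood test, Benjamini-Hochberg adjusted over all genes tested; 15 pairwise and 5 interaction tests were run. The test was checked on simulated counts. All 10 members are named; from each further list up to 4 called genes of largest change per comparison, and the 3 most alike genes (mean of at least 10 CPM) per member. Members and lists were chosen with earlier results of these data known. Livers are taken as separate animals from the labels. Levels per summed hepatocyte markers were added after the data were seen and are described without a test. Alternatives were DESeq2 1.42.0 size factors and Wald test, other filters, a fold threshold, 1 fit of all groups, a replicate block and leaving out each library. In no comparison did the deviations of every same-numbered pair correlate above 0.1, so the numbers were not treated as pairs.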

Additional observations from a re-analysis of the deposited data

Results flagged for a closer look

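Of 100 sets of values (10 genes in 10 groups), 10 had a library far from the others of its group by Dixon's test at 95%. Chance alone flags about 1 in 20. HFCF control male 1 was the highest of its 6 for Ces1e (230.3 CPM), Ces1f (442 CPM), Ces1g (289 CPM), Ces2a (220.4 CPM) and Ces2c (72.7 CPM). In HFCF labelled-knockout male 6, Ces2e was high at 303 CPM. In females, Ces1e was low in HF control 1 (133 CPM), Ces2a was high in HF labelled knockout 4 (212 CPM), Ces2c was high in HF labelled knockout 2 (10.5 CPM, in a group of very small spread), and Ces2e was high in HFCF labelled knockout 1 (268 CPM). The knockout difference of Ces3a also differed between the diets in males, by -0.68 on the log2 scale in the interaction test.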

How the results depend on the processing

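Of 3600 values of single genes under an alternative, 165 had the opposite sign to the reported one, and 0 of these were of a called gene. An example is Ces2c in control males on HFCF against HF, at -0.05 without HFCF control male 1. With a further threshold of 1 on the size of the log2 fold change there were 0 of 10 genes called for the labelled knockout in HF males and in HFCF males, 0, 1 and 4 for HFCF against HF in control males, labelled-knockout males and control females, 0 for HF against LF in control females, 3 and 1 for sex on HF and HFCF, and 0 for the knockout-by-diet interaction in males. The DESeq2 Wald test called 2 genes for the labelled knockout in HFCF males, 1 in HF females, 2 and 4 for HF against LF in control and labelled-knockout females, 4 for HFCF against LF in labelled-knockout females, and 2 for diet by sex. Over all genes it called 719, 70, 667, 510, 2474 and 134 in that order. Fitting all 10 groups together called 2 and 0 for the labelled knockout in HF and HFCF males, 3 for HFCF against HF in control males, 2 and 1 for HF against LF in control and labelled-knockout females, 5 for HFCF against LF in labelled-knockout females, and 0 for the male interaction. Without the filter on low counts 2 genes were called for HF against LF in control females, 2 for HFCF against LF in labelled-knockout females and 0 for the male interaction, and DESeq2 size factors also gave 0 there. The cause of these differences was not tested. In single genes the replicate block changed 13 of 200 calls, the joint fit 16 (8 gained, 8 lost), the Wald test 14 (all gained), no filter 3, size factors 1, and at least 10 counts in every library 0.

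With the replicate number as a block, 0 of the 10 genes were called for the labelled knockout in HFCF males, 0 for HFCF against HF in control females, 1 for sex on HFCF and 0 for the male knockout-by-diet interaction. Over all genes the block left 165, 0, 118 and 127 calls in that order, in place of 324, 4526, 396 and 235. In control females, number 5 on HFCF and number 4 on HF have no same-numbered library in the other group. With so few livers the block then leaves little from which to estimate the spread. Its part in the fall to 0 calls was not tested. Numbers were taken to pair samples only where every same-numbered pair of deviations correlated above 0.1, which no comparison met. The rule is strict with so few livers, so failing it does not show that pairing was absent. For the labelled knockout in LF females 3 of 4 pairs were above 0.1, up to 0.517. Some same-numbered male controls and labelled knockouts also carry neighbouring animal numbers. The lowest and highest correlations were -0.166 and 0.29 for the labelled knockout in HF males and -0.29 and 0.139 for HFCF against HF in control females. All were above 0 in 2 comparisons, sex on HF (0.053 to 0.34) and HFCF against LF in labelled-knockout females (0.023 to 0.187).

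Leaving out 1 library at a time gave 4 to 4 calls for the labelled knockout in HF males, 0 to 4 in HFCF males and 0 to 0 in females on each diet. HFCF against HF gave 2 to 7 in control males, 7 to 7 in labelled-knockout males, 6 to 8 in control females and 4 to 9 in labelled-knockout females. HF against LF gave 0 to 1 and 0 to 0, HFCF against LF 3 to 5 and 1 to 5, in control and labelled-knockout females. Sex gave 6 to 9 on HF and 1 to 2 on HFCF. The interactions gave 0 to 1 and 0 to 0 for knockout by diet in males and females, 0 to 3 and 0 to 0 for knockout by sex on HF and HFCF, and 0 to 2 for diet by sex. Over all genes the calls also moved, from 2018 to 2777 for the labelled knockout in HF males and 185 to 1052 in HFCF males. For HFCF against HF they ran from 2217 to 5429, 5105 to 6036, 2454 to 6530 and 866 to 4402, in the order above. For sex they ran from 1340 to 5053 on HF and 183 to 638 on HFCF. Without TMM, 94 of 100 group levels moved by less than 1 SD. The lowest count of any of the 10 genes was 44 reads, for Ces2c in 1 library.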
